A study of Mus musculus with 2 samples.

Results

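The genes described here are 8 genes of stress erythropoiesis, the emergency production of red cells: Kit, Nr3c1, Bmpr2, Bmpr1a, Smad1, Smad5, Smad4 and Gdf15. They were chosen by symbol, each symbol matched 1 entry, and the deposited tables list 32285 genes in all. The data are droplet-based single-cell RNA counts of live spleen cells from C57BL/6 mice made anaemic over 1 month. In the PHZ library the mice were injected with PHZ, and in the bleeding library they were bled, in both cases once every 3 days. Each treatment had 1 library, the number of mice behind each was not given, and untreated mice were not analysed here. Strain, tissue, chronic anaemia and the 10x Genomics 3′ v3.1 chemistry were shared by both libraries; age was not given in the sources used here.

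In mice the spleen is the main site where red cell production expands under anaemia. Stem cell factor acting on the receptor Kit and glucocorticoid hormone acting on its nuclear receptor are known to expand immature erythroid progenitors there. So are bone morphogenetic proteins (BMPs), acting through paired receptors and Smad proteins. Kit is shut off as erythroblasts mature, and Gdf15 is a secreted protein that erythroblasts release when red cell production is ineffective, as known from human disease.

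The cells kept numbered 6113 in PHZ, where the median cell had 12242 UMIs (unique molecular identifiers, each 1 captured RNA molecule), and 8953 in bleeding, where it had 8045. Haemoglobin genes took 44.4% of UMIs in PHZ cells and 32.3% in bleeding cells, so levels are given as UMIs of a gene per 1000000 UMIs of all other than haemoglobin genes (CPM), summed over the cells of a class. All intervals are at 95% and reflect counting error alone. Ratios are PHZ over bleeding, and with 1 library per treatment no test between treatments was possible; treatment, mouse and library cannot be told apart. The libraries shared 15 cell barcodes. Classes are named "-like" from marker genes: early progenitor-like cells numbered 152 in PHZ and 71 in bleeding, and erythroid-like cells 3005 and 2251. In the early progenitor-like cluster 7 of 10 markers were enriched, among them Gata2, Myb, Zfpm1 and Car1; markers of basophils and mast cells, which also use Kit, summed to 2.93 CPM in PHZ and 4.45 CPM in bleeding cells of that cluster, with Prss34, Cpa3, Fcer1a and Cd200r3 at 0. Dendritic cell markers summed to 40.9 CPM in PHZ and 38.7 CPM in bleeding cells there. Early progenitor-like and erythroid-like cells together were staged by the haemoglobin share of their UMIs, and those under 20% numbered 335 in PHZ and 157 in bleeding.

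Of the 8 genes, 5 had at least 50 UMIs over both libraries in cells under 20% haemoglobin: Kit, Nr3c1, Bmpr2, Smad5 and Smad4. Kit alone differed by 1.5-fold or more, on the lower side in PHZ cells, against a background of 6.71% of the 9786 genes with that many UMIs. The other 3 genes, Bmpr1a, Smad1 and Gdf15, were near the detection limit in these cells. In the early progenitor-like class it was again Kit, 1 of 5, against a background of 8.28%.

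**Figure D1:**
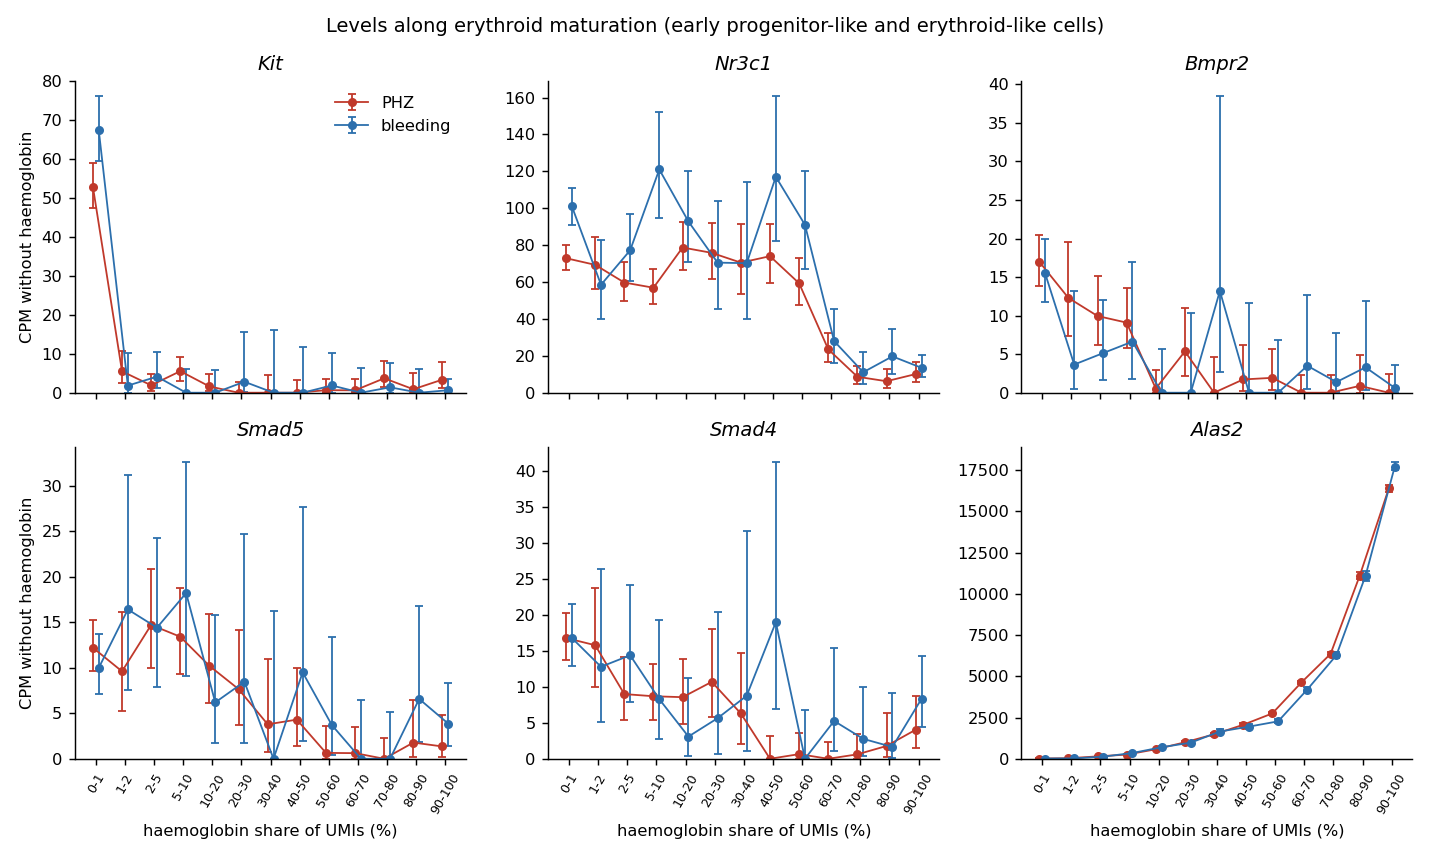
Levels of Kit, Nr3c1, Bmpr2, Smad5 and Smad4 (CPM without haemoglobin, vertical axis) along steps of the haemoglobin share of UMIs (horizontal axis, early to late) in early progenitor-like and erythroid-like cells of the PHZ and the bleeding library, with Alas2, the erythroid haem synthesis enzyme, as a stage control. Points are class sums, 1 library each, and bars are 95% Poisson intervals for counting error. Kit was near 0 past the first steps in both libraries, while Nr3c1 lasted up to about 60% haemoglobin.

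Kit encodes the receptor tyrosine kinase for stem cell factor and lies on chromosome 5 at 75574916 to 75656722 (GRCm38, plus strand). In the spleen erythroid series it was concentrated in the most immature cells. Cells under 20% haemoglobin held 363 Kit UMIs in the PHZ library, or 25.4 CPM (22.9 to 28.2), and 262 UMIs in the bleeding library, or 39.8 CPM (35.2 to 45.0). The level was lower in the PHZ library, with a ratio of 0.638 (0.543 to 0.751) and intervals that do not overlap. In the early progenitor-like class the levels were 31.9 CPM (28.7 to 35.4) in PHZ and 51.1 CPM (45.1 to 57.6) in bleeding cells, a ratio of 0.624 (0.531 to 0.734), which turned to 1.08 with a minimum of 500 UMIs per barcode, where the clusters were drawn anew.

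The size of that difference moved with how narrowly the immature stage was drawn. Cells with under 1% haemoglobin, 63 in PHZ and 43 in bleeding, carried 92.0% and 98.1% of the Kit UMIs found under 20%. In them Kit stood at 52.9 CPM (47.4 to 58.9) in PHZ and 67.5 CPM (59.5 to 76.2) in bleeding cells, so the ratio narrowed to 0.784 (0.665 to 0.927). Kit was detected in 46 of 63 PHZ cells (73.0%, exact interval 60.3 to 83.4) and 32 of 43 bleeding cells (74.4%, 58.8 to 86.5), nearly the same shares. The median such cell had 5.0 Kit UMIs in PHZ and 4.0 in bleeding, and the highest 25 and 23. Cells under 1% haemoglobin made up 44.2% of the UMIs of the stage under 20% in PHZ and 57.9% in bleeding, a smaller Kit-rich fraction in PHZ. Its part in the wider ratio was not tested beyond these values.

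Over all early progenitor-like cells, Kit was detected in 54 of 152 PHZ cells (35.5%) and 36 of 71 bleeding cells (50.7%), at a median of 82400 and 78700 UMIs per cell. B cell-like cells, which should lack Kit, showed it in 0.457% of PHZ and 0.0851% of bleeding cells, at far shallower medians of 5880 and 5730 UMIs. With each cell thinned to 500 UMIs the early progenitor-like shares were 1.32% in PHZ and 1.41% in bleeding cells, against 0.130% of PHZ and 0 of 3527 bleeding B cell-like cells, which allows up to 0.105% (exact upper bound). Those at 500 UMIs rest on 2 PHZ cells and 1 bleeding cell, too few to show an order. Thinned to 2000 UMIs the shares were 2.76% in PHZ and 5.71% in bleeding. Thinned to 10000 UMIs the PHZ share was 17.3% (11.2 to 25.0), from 22 of 127 cells, and the bleeding share 27.4% (16.9 to 40.2), from 17 of 62, lower in PHZ with overlapping intervals.

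The promoters of 3 members are shown because the erythroid data set Smad5, which was detected there, beside Smad1, which was near 0, and beside Kit, which was limited to the earliest cells. Each is the 250 bases before a RefSeq start (GRCm38.p6), 5′ to 3′ on the gene's strand, taken from the promoter table credited to RefSeq, from which 6 of the 8 genes were used. Capitals mark GATAA or AGATA, forms of the GATA factor motif, and GGGCGG, the GC box, each on either strand. Among all 32851 promoters, 35.9% held a GATA form and 32.7% a GC box.
Kit, first of 2 starts, chr5:75574737-75574986, plus strand: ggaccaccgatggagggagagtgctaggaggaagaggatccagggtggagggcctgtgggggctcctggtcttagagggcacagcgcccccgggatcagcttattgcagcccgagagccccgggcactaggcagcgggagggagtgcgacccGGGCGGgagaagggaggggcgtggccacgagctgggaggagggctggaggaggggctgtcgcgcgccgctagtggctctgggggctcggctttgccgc
Smad1, chr8:79399429-79399678, minus strand: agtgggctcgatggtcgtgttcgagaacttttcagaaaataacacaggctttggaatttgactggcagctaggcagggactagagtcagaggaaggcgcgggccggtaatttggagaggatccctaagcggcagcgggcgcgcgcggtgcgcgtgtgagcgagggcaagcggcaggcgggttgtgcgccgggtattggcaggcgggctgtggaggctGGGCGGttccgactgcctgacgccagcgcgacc
Smad5, first of 3 starts, chr13:56702760-56703009, plus strand: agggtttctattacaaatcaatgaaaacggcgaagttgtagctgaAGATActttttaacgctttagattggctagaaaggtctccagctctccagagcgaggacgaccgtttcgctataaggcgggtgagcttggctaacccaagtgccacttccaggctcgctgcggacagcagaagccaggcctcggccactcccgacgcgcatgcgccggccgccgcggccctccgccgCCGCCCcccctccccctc
A GC box was found once in each of these 3 windows. A GATA form was found once in the Smad5 window and not in the windows of Kit or Smad1; that says only that these letters are not there.

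Outside the erythroid series Kit marked a few small populations. The highest class level was in dendritic cell-like cells, which present antigen: 128 UMIs, or 90.9 CPM (75.8 to 108), in PHZ and 302 UMIs, or 131 CPM (117 to 147), in bleeding cells. The ratio was 0.692 (0.558 to 0.854). None of the 6 members with 50 or more UMIs passed 1.5-fold in this class, where the background was 12.5%. The Kit level was highest in 2 sub-clusters, both with Dscam and Adam23 among their leading genes. The dendritic growth factor receptor gene Flt3 was among those of the smaller one only. The larger one had 314 CPM in its 9 PHZ cells and 245 CPM in its 49 bleeding cells, and the smaller one 254 CPM in 6 PHZ cells and 193 CPM in 10 bleeding cells. The PHZ value was the higher one in both, within overlapping intervals, while the class sum was lower in PHZ, and the larger of them held 9 of 82 dendritic cell-like cells in PHZ and 49 of 157 in bleeding. A further sub-cluster with Dscam and Adam23 among its leading genes had 41.9 CPM in 11 PHZ cells and 46.5 CPM in 19 bleeding cells. Another cluster, led by Cst3, Clec9a and Xcr1 of cross-presenting dendritic cells, had 34 UMIs, or 76.1 CPM, in 16 PHZ cells. In its 31 bleeding cells it had 100 UMIs, or 113 CPM, again with overlapping intervals. The 10 early progenitor markers summed to 113 CPM in PHZ and 91.8 CPM in bleeding dendritic cell-like cells, with 7 of them above 0 in each library and Gata2 and Muc13 at 0; in the early progenitor-like class they summed to 2080 CPM and 2510 CPM.

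In neutrophil-like cells Kit had 90 UMIs, or 23.4 CPM, in PHZ and 15 UMIs, or 13.4 CPM, in bleeding cells. The ratio was 1.75 (1.01 to 3.26), but 0.422 with a minimum of 500 UMIs per barcode, and Kit was 1 of 5 members past 1.5-fold, against a background of 18.4%. All but 1 of these UMIs were in the immature cluster led by the granule genes Camp, Ngp and Ltf, at 29.3 CPM in its 144 PHZ cells and 16.1 CPM in its 47 bleeding cells. Early progenitor markers summed to 214 CPM in PHZ and 196 CPM in bleeding neutrophil-like cells, with Gata2, Cd34 and Angpt1 at 0. In NK cell-like cells Kit had 9 UMIs in PHZ (19.9 CPM) and 60 in bleeding (51.9 CPM), a ratio of 0.384 (0.168 to 0.779); it was 1 of 3 members past 1.5-fold against 12.6% of genes. There 3 cells held 88.9% of the PHZ UMIs, and without the 3 highest cells of each library the ratio was 0.0633. Basophil or mast cell-like cells, 6 in PHZ and 7 in bleeding, had no Kit UMI. An unnamed sub-cluster led by Cpa3, Angpt1, Gzmb and Kit itself had 3 UMIs over 4 PHZ cells and 74 over 12 bleeding cells, where 3 cells held all of them.

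Across all classes, the spread of Kit UMIs over cells differed between the libraries. Early progenitor-like cells held 57.3% of the 627 Kit UMIs in PHZ cells and 34.7% of the 761 in bleeding cells. Dendritic cell-like cells held 20.4% in PHZ and 39.7% in bleeding, and neutrophil-like cells 14.4% in PHZ and 1.97% in bleeding. These shares follow the number of cells captured as well as the level per cell.

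Nr3c1 encodes the glucocorticoid receptor, a hormone-activated transcription factor, and lies on chromosome 18. It was lower in immature PHZ erythroid cells. Cells under 20% haemoglobin had 978 Nr3c1 UMIs, or 68.5 CPM (64.3 to 72.9), in PHZ and 624 UMIs, or 94.9 CPM (87.6 to 103), in bleeding. This gave a ratio of 0.722 (0.652 to 0.80), and the intervals of the levels do not overlap; the difference is under 1.5-fold. In early progenitor-like cells the levels were 64.6 CPM in PHZ and 91.0 CPM in bleeding, a ratio of 0.710 (0.631 to 0.799). Under 1% haemoglobin they were 72.9 CPM and 101 CPM, a ratio of 0.723 (0.630 to 0.830), so the narrower stage left the Nr3c1 ratio where it was.

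Nr3c1 outlasted Kit during maturation. Its levels from under 5% haemoglobin through 5 to 20%, 20 to 50%, 50 to 80% and 80% or more were 69.5, 66.2, 73.9, 30.1 and 8.43 CPM in the PHZ library. In the bleeding library the same stages had 92.1, 106, 86.8, 39.8 and 15.2 CPM. PHZ was below bleeding at each of the 5 stages, and both libraries held the level to 50% haemoglobin before it fell. At 5 to 20% haemoglobin the ratio was 0.622 (0.505 to 0.769), and at 80% or more it was 0.554 (0.307 to 0.978) from 22 PHZ and 33 bleeding UMIs. Nr3c1 was there 1 of 2 and 1 of 1 members with enough UMIs past 1.5-fold, against backgrounds of 18.2% and 31.3%. Of 12 finer Nr3c1 steps with a ratio, 9 were below 1, down to 0.470 (0.353 to 0.632) at 5 to 10%. Among these, the intervals under 1% and at 5 to 10%, 40 to 50% and 50 to 60% exclude 1, and the others include it. Those at 70 to 80% and 90 to 100% rest on fewer than 50 UMIs over both libraries. The step from 1 to 2% was at 1.18 (0.789 to 1.82), that from 20 to 30% at 1.08 (0.688 to 1.74) and that from 30 to 40% at 1.0. In barcodes with few UMIs, taken as free RNA, Nr3c1 was at 112 CPM in PHZ and 209 CPM in bleeding. Free RNA was thus also lower in PHZ, and it lay above each of the 5 stage levels of the same library. The part of free RNA in the stage levels and their ratios, including that at 80% or more, was not tested.

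Kit and Nr3c1 were also read in the same early progenitor-like cells. With each cell thinned to 10000 UMIs, Nr3c1 was found in 14 of 22 Kit-positive PHZ cells (63.6%) and 11 of 17 Kit-positive bleeding cells (64.7%). In cells without a Kit UMI it was found in 37 of 105 (35.2%) in PHZ and 14 of 45 (31.1%) in bleeding. The share was higher in Kit-positive cells in both libraries. Thinning equalised depth, and cells are not replicates, so no test was made.

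Outside the erythroid series Nr3c1 was found in every class, and its levels there were close between libraries. B cell-like cells had the highest level, 286 CPM in PHZ (275 to 296) and 285 CPM in bleeding (278 to 291), a ratio of 1.0 (0.960 to 1.05). T cell-like cells had 204 CPM in PHZ and 200 CPM in bleeding, and dendritic cell-like cells 169 CPM and 164 CPM. NK cell-like cells had 217 CPM in PHZ and 239 CPM in bleeding, neutrophil-like cells 153 CPM and 169 CPM, and monocyte or macrophage-like cells 153 CPM and 182 CPM. The intervals of PHZ and bleeding overlap in each of these 6 classes. By level the order of the 6 in the PHZ library was B, NK, T, dendritic, then neutrophil and monocyte or macrophage, and below B cell-like cells each neighbour in that order overlaps the next in its interval. The few plasmacytoid dendritic cell-like cells, 12 in PHZ and 12 in bleeding, stood at 339 CPM (256 to 440) and 247 CPM (174 to 340). None of the 4 members with enough UMIs in monocyte or macrophage-like cells passed 1.5-fold, against a background of 11.9%.

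**Figure D2:**
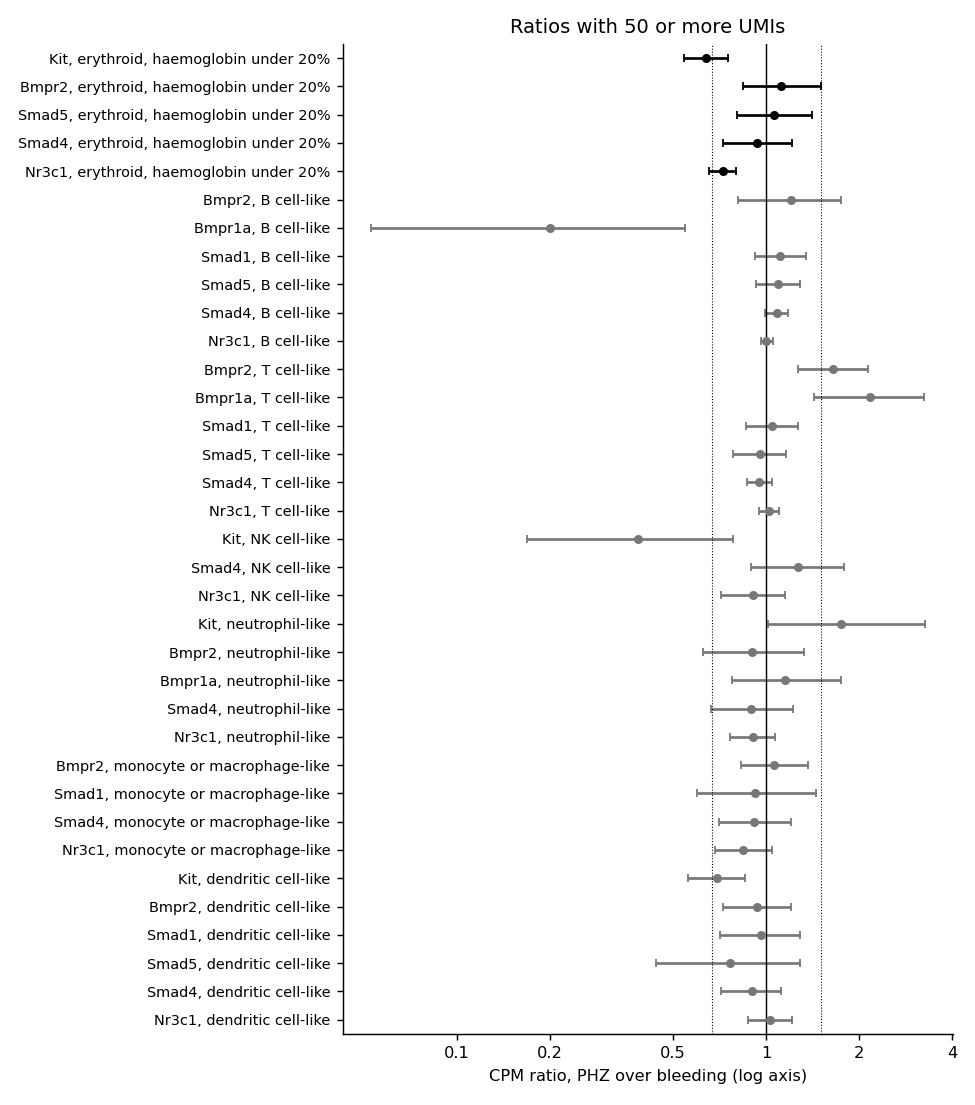
CPM ratio of PHZ over bleeding (horizontal log axis) for each member with 50 or more UMIs over both libraries, in erythroid cells under 20% haemoglobin (black, early progenitor-like cells included) and in other classes (grey). Bars are exact conditional 95% intervals for counting error, the solid line marks no difference and the dotted lines mark 1.5-fold; Kit and Nr3c1 lie below 1 in the erythroid stage, while the ratios of Bmpr2, Smad5 and Smad4 there span it.

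BMP signalling starts at a type 2 receptor, here Bmpr2 (chromosome 1, 59763400 to 59879014, plus strand), which activates a type 1 receptor, here Bmpr1a (chromosome 14, 34410734 to 34503341, minus strand). Bmpr2 was detected in immature erythroid cells at close levels in both libraries: 170 UMIs, or 11.9 CPM (10.2 to 13.8), in PHZ and 70 UMIs, or 10.6 CPM (8.30 to 13.4), in bleeding cells under 20% haemoglobin. The ratio was 1.12 (0.842 to 1.5), and other settings gave 0.792 to 1.70. It declined with maturation, to 0.627 CPM in PHZ and 1.64 CPM in bleeding cells at 50 to 80% haemoglobin, 3 UMIs in each. Bmpr1a had 3 UMIs in PHZ and 3 in bleeding over all early progenitor-like and erythroid-like cells, 0.120 CPM and 0.261 CPM, too few to compare. Bmpr1a is overlapped on the other strand by the annotated antisense gene Gm17110, and whether counting used the strand was not given in the sources used here.

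Both receptors were found mainly in other cells. Bmpr2 was highest in monocyte or macrophage-like cells, 130 CPM (115 to 148) in PHZ and 123 CPM (99.2 to 151) in bleeding. Dendritic cell-like cells followed at 73.1 CPM in PHZ and 78.3 CPM in bleeding, and neutrophil-like cells at 32.0 CPM and 35.6 CPM, again with overlapping intervals. Bmpr1a instead was highest among the named classes in neutrophil-like cells, 126 UMIs, or 32.8 CPM (27.3 to 39.0), in PHZ and 32 UMIs, or 28.5 CPM (19.5 to 40.2), in bleeding. In monocyte or macrophage-like cells it had 1 UMI in PHZ and 0 in bleeding. Within the neutrophil-like class Bmpr1a was found in the mature cluster led by Il1b and Cxcr2 (46.8 CPM in PHZ, 43.4 CPM in bleeding) and in the immature cluster (29.3 CPM and 24.2 CPM).

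In T cell-like cells both receptors were higher in the PHZ library. Bmpr2 had 88 UMIs, or 20.8 CPM (16.7 to 25.6), in PHZ and 204 UMIs, or 12.5 CPM (10.9 to 14.4), in bleeding, a ratio of 1.65 (1.27 to 2.13). Bmpr1a had 40 UMIs, or 9.44 CPM (6.74 to 12.8), in PHZ and 71 UMIs, or 4.37 CPM (3.41 to 5.51), in bleeding, a ratio of 2.16 (1.43 to 3.23). They were 2 of 6 members past 1.5-fold, against a background of 6.14% of genes. Bmpr1a differed most clearly in the cluster led by Ikzf2, Il2ra, Ctla4 and Foxp3, genes of regulatory T cells, with 23.3 CPM (14.0 to 36.3) in its 105 PHZ cells and 5.39 CPM (2.95 to 9.04) in its 344 bleeding cells. Not all T cell-like clusters had more Bmpr1a in PHZ: in 1 sub-cluster it had 0 UMIs in 16 PHZ cells (up to 26.7 CPM) and 17.3 CPM (8.62 to 30.9) in 75 bleeding cells, and in another 0 UMIs in 9 PHZ cells and 5.63 CPM in 18 bleeding cells. The cluster led by Cd8b1 and Cd8a had 3.81 CPM in PHZ and 3.56 CPM in bleeding, and that led by Igfbp4 and Cd4 9.27 CPM and 3.45 CPM. Unnamed sub-clusters with T cell markers enriched lie outside these sums and went both ways. A sub-cluster of 11 PHZ and 49 bleeding cells had 6.33 CPM and 27.0 CPM, and one of 9 and 14 cells 36.1 CPM and 0. The cluster led by Ikzf2, Il2ra, Ctla4 and Foxp3 had the most Bmpr2 of the larger T cell-like clusters. It had 44.1 CPM in PHZ and 33.5 CPM in bleeding, where the intervals overlap. In B cell-like cells Bmpr1a had 4 UMIs (0.411 CPM) in PHZ and 49 (2.05 CPM) in bleeding, a ratio of 0.20 (0.0525 to 0.546) and 1 of 6 members past 1.5-fold against 6.55%. Of the 49 bleeding UMIs, 28 were in a sub-cluster of 23 cells led by the germinal centre genes Mybl1 and Rgs13, which held no PHZ cell.

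**Figure D3:**
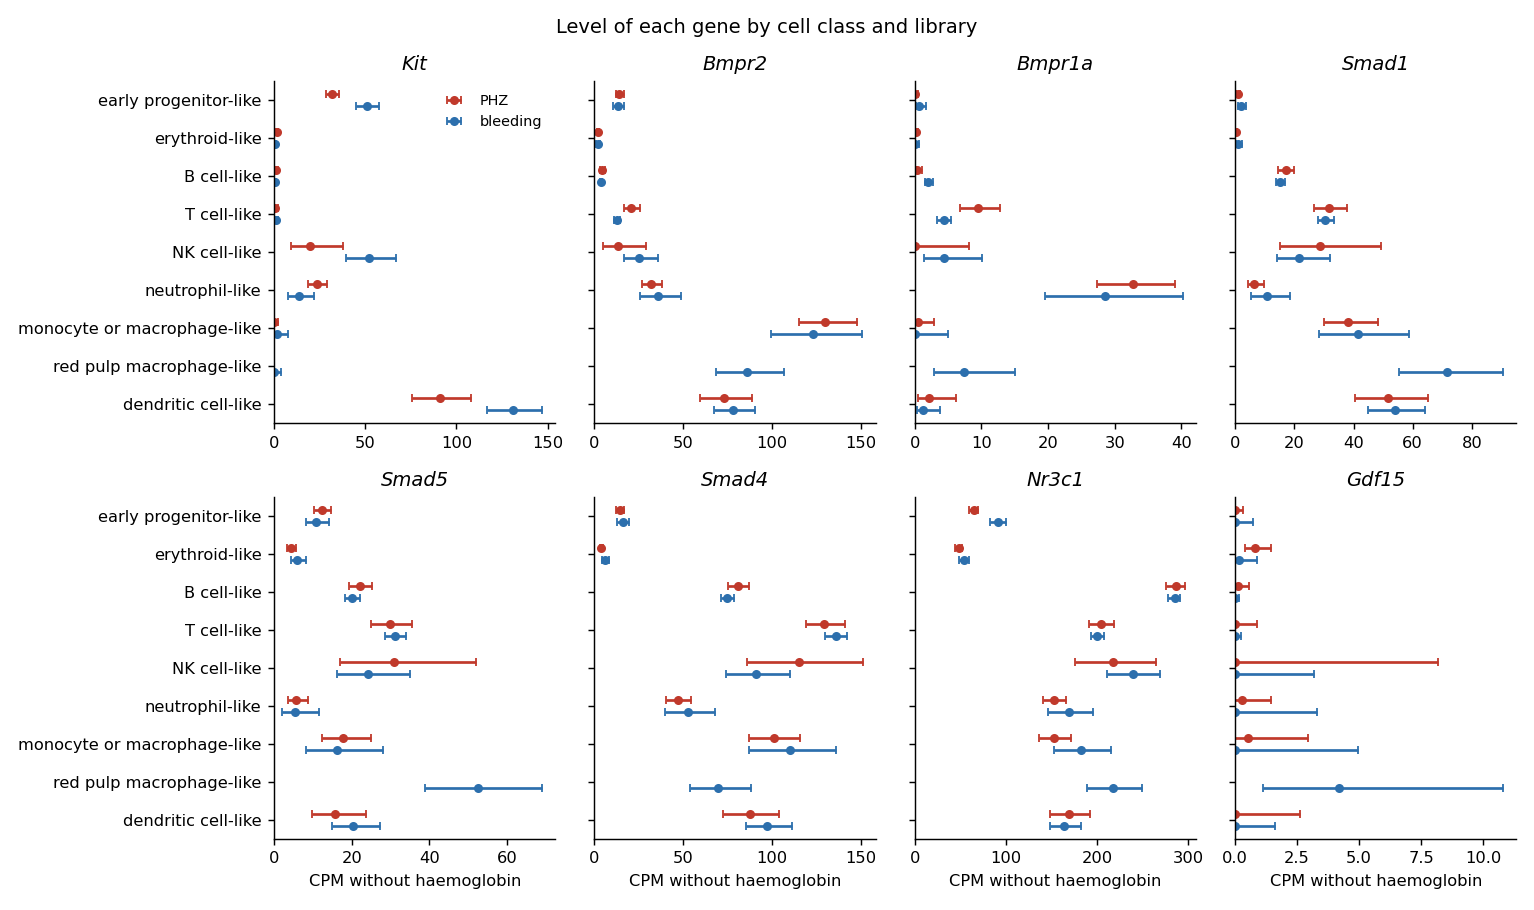
Level of each of the 8 genes (CPM without haemoglobin, horizontal axes differ between genes) by cell class in the PHZ and the bleeding library, for classes with 50 or more cells in the library. Points are class sums and bars are 95% Poisson intervals; Nr3c1 was highest in B cell-like cells, Bmpr2 in monocyte or macrophage-like cells and Bmpr1a in neutrophil-like cells.

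The receptors pass the signal to Smad1 and Smad5, which join the shared partner Smad4 to enter the nucleus. In erythroid cells Smad5 (chromosome 13, 56703010 to 56742377, plus strand) was detected and Smad1 (chromosome 8, 79338395 to 79399518, minus strand) was nearly absent. Smad5 had 175 UMIs, or 12.3 CPM (10.5 to 14.2), in PHZ and 76 UMIs, or 11.6 CPM (9.10 to 14.5), in bleeding cells under 20% haemoglobin, a ratio of 1.06 (0.806 to 1.41). Smad1 had 10 UMIs in PHZ (0.700 CPM) and 11 in bleeding (1.67 CPM), where 4 bleeding cells carried them all. By the promoters shown above, both genes hold a GC box, and the Smad5 window alone of the pair holds a GATA form. The Smad5 window is that of the first of 3 starts, and 35.9% of all promoters held a GATA form. A link between these letters and the levels was not tested.

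Smad5 kept its level from under 5% (12.3 CPM in PHZ, 11.4 CPM in bleeding) to 5 to 20% haemoglobin (12.1 CPM and 12.0 CPM), and stood lower at 20 to 50% (5.52 CPM and 6.68 CPM). Smad4, on chromosome 18, had 186 UMIs, or 13.0 CPM, in PHZ and 92 UMIs, or 14.0 CPM, in bleeding cells under 20% haemoglobin, a ratio of 0.931 (0.722 to 1.21). In the erythroid-like class as a whole it was 3.87 CPM (2.90 to 5.07) in PHZ and 6.18 CPM (4.39 to 8.45) in bleeding, a ratio of 0.627 (0.407 to 0.974), but 1.01 once 5% of the class sum was subtracted as background RNA. This was 1 of 3 members past 1.5-fold in the erythroid-like class, against a background of 16.1%. A pseudogene overlaps Smad4 on the other strand, so the limit given for Bmpr1a applies.

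Outside the erythroid series no Smad member with 50 or more UMIs passed 1.5-fold in any named class. Among classes with 50 or more cells in each library, Smad4 was highest in T cell-like cells, 129 CPM in PHZ (119 to 141) and 136 CPM in bleeding (130 to 142). In B cell-like cells it was 80.9 CPM and 74.8 CPM. Smad1, nearly absent from erythroid cells, reached 51.8 CPM in PHZ and 53.9 CPM in bleeding dendritic cell-like cells, and 31.8 CPM and 30.5 CPM in T cell-like cells. Smad5 was 22.1 CPM in PHZ and 20.2 CPM in bleeding B cell-like cells. Neutrophil-like cells, which had the most Bmpr1a, had little Smad1 (6.51 CPM in PHZ, 10.7 CPM in bleeding) and Smad5 (5.73 CPM and 5.35 CPM), beside 46.9 CPM and 52.6 CPM of Smad4. Red pulp macrophage-like cells, which clear old red cells, had 71.4 CPM of Smad1 and 52.5 CPM of Smad5 in the bleeding library; the PHZ library had 14 such cells with 0 UMIs of either, which allows up to 121 CPM.

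Gdf15, a secreted member of the transforming growth factor beta family (chromosome 8, 70629393 to 70632456, minus strand), was barely detected. It had 16 UMIs in all PHZ cells and 5 in all bleeding cells. Erythroid-like cells held 11 of them in PHZ, over 8 cells (0.804 CPM, 0.401 to 1.44), and 1 in bleeding (0.158 CPM, 0.00401 to 0.883). The ratio was 5.07 with an interval of 0.737 to 218, so a difference was not detectable at this depth, and 1 PHZ cell held 4 of the 11. Early progenitor-like cells had 0 UMIs in both libraries, which allows up to 0.266 CPM in PHZ and 0.581 CPM in bleeding. The PHZ UMIs of the erythroid series lay at 20 to 50% haemoglobin (4 UMIs in 4 cells) and 50 to 80% (4 UMIs in 1 cell), with 1 at each of the other 3 stages. Red pulp macrophage-like cells had 1 Gdf15 UMI in 14 PHZ cells (40.4 CPM, 1.02 to 225). In bleeding they had 2 UMIs in a cluster of 106 cells (8.49 CPM) and 2 in one of 88 cells (2.79 CPM).

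The partners of these genes were read from 9 gene lists in the same cells under 20% haemoglobin, where all genes had a median log2 ratio of -0.03. Of 15 genes of the Kit pathway, 12 had 50 or more UMIs; none passed 1.5-fold, and their median was -0.20. The adaptor gene Grb2 had 1220 UMIs in PHZ and 574 in bleeding, a ratio of 0.979 (0.886 to 1.08), the scaffold gene Gab2 was at 0.802 (0.724 to 0.889) and Pik3r1, a regulatory subunit of PI3-kinase, at 1.09. Kitl, the gene of stem cell factor, had 5 UMIs in all PHZ cells and 114 in all bleeding cells. Of these, 108 were in bleeding red pulp macrophage-like cells, at 113 CPM (93.0 to 137). The 14 such PHZ cells had 2 UMIs, or 80.8 CPM (9.78 to 292), levels that cannot be told apart. No cluster was named endothelial-like or stromal-like, so Kitl in such cells could not be read.

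Of 8 chaperones and partners of the glucocorticoid receptor, 6 were measured, none passed 1.5-fold and the median was -0.33. The cochaperone gene Ptges3 was at 0.958 (0.914 to 1.0), Ncor1, a corepressor, at 0.994 (0.940 to 1.05) and Fkbp4, an immunophilin that moves the receptor to the nucleus, at 0.795 (0.748 to 0.845). Of 11 glucocorticoid target genes 8 were measured, with a median of -0.25 and 1 past 1.5-fold on the lower side, against 6.71% of all genes. That one was Tgfbr3, a coreceptor for transforming growth factor beta, with 302 UMIs (21.2 CPM) in PHZ and 224 (34.1 CPM) in bleeding, a ratio of 0.621 (0.521 to 0.742). Zfp36l2, an RNA-binding protein gene required for self-renewal of early erythroid progenitors in mice, was at 0.80 (0.715 to 0.896) and the transcription factor gene Klf9 at 0.794 (0.679 to 0.929). Fkbp5, a classical glucocorticoid target, was at 0.761 (0.631 to 0.920), while the targets Dusp1 and Tsc22d3 were at 1.26 and 1.06 with intervals that include 1.

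Among BMP and transforming growth factor beta receptors, 5 of 12 were measured, with a median of -0.48 and 2 past 1.5-fold on the lower side, Tgfbr3 and Tgfbr2, where 6.71% of all genes passed it. Tgfbr3 is the same gene as in the glucocorticoid target list. Tgfbr2, a type 2 receptor gene, had only 33 UMIs in PHZ and 23 in bleeding, a ratio of 0.661 (0.377 to 1.18). The coreceptor gene Eng was at 0.934 (0.781 to 1.12) and Tgfbr1 at 0.715 (0.568 to 0.903). Of the other BMP type 1 receptor genes, Acvr1 had 0 UMIs in PHZ and 1 in bleeding and Bmpr1b had 0 in both. With Bmpr1a at 2 UMIs in PHZ and 3 in bleeding in these cells, these 3 type 1 receptor genes were near the detection limit, while Bmpr2 and Smad5 were measured. Of 10 ligand genes 1 was measured, Tgfb1 at 0.835 (0.750 to 0.931), and Bmp4 had 0 UMIs in all cells of both libraries. Those cells held no cluster named endothelial-like or stromal-like.

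Of 11 other Smads and Smad regulators 7 were measured, none passed 1.5-fold and the median was -0.19, with Trim33, a cofactor of Smad2 and Smad3, at 0.879. Of 8 BMP target genes 1 was measured, the inhibitory Smad gene Smad7 at 0.921 (0.670 to 1.28), and Id1, the usual readout of BMP signalling, had 11 UMIs in PHZ and 8 in bleeding. Among genes tied to Gdf15, 3 of 5 in the files were measured, none passed 1.5-fold and the median was -0.07, with its regulators Trp53 at 1.01 and Atf4 at 0.954. In the erythroid-like class as a whole, 2 of 3 measured genes of this list passed 1.5-fold on the higher side, where 8.16% of all genes did. These were Atf4 at 1.62 (1.51 to 1.74) and Cdkn1a at 4.75 (3.00 to 7.94), beside Trp53 at 1.43. By stage, Atf4 was at 0.948 at 5 to 20% haemoglobin, 1.25 at 20 to 50%, 1.28 at 50 to 80% and 4.74 at 80% or more. The last rests on 451 PHZ and 79 bleeding UMIs, where 18.2% of all genes were higher. Cdkn1a had 122 PHZ and 2 bleeding UMIs at 20 to 50%. At 5 to 20% it had 32 and 15, a ratio of 0.606. The part of the stage mix in the class ratios was not tested. Of 9 Hedgehog genes, which cooperate with BMP4 in the mouse spleen, 2 were measured under 20% haemoglobin, with a median of -0.44. The receptor gene Ptch1 was at 0.884 (0.749 to 1.05). Its partner Smo was at 0.613 (0.463 to 0.813), with 121 UMIs in PHZ and 91 in bleeding. Smo was thus 1 of 2 past 1.5-fold, on the lower side, against a background of 6.71%. None of the 9 lists had a gene past 1.5-fold on the higher side under 20% haemoglobin, where only 2.65% of all genes were, so few would be looked for.

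The genes whose levels across 23 class and stage points of both libraries were most like those of a member were ranked by Pearson's r of log2(CPM + 10) over 10457 genes. The points share 2 libraries and the same scaling, so r is a description. For Kit they were Ptpn3 (0.89), Vsig10 (0.87) and Klri1 (0.79), and for Nr3c1 Rnf111, Smg1 and Kdm4c (0.97 each). For Bmpr2 they were Anxa5, Rnf149 and Dnajb14 (0.94 to 0.95), and for Bmpr1a Tnnt1 (0.94), Prom1 and Gm1604a (0.91). For Smad1 they were Fam49a, Otulinl and Dnmt3a (0.96), for Smad5 Ago3 (0.96), Mapk8 and Fpgt, and for Smad4 Exoc6b, Arrdc1 and Mrtfa (0.98). Kit had the lowest such values, and no gene among those compared followed it as closely as the first genes for Smad4 or Nr3c1 followed them.

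Each of 12 other settings left both values below 1. Over them the Kit ratio under 20% haemoglobin lay between 0.505 and 0.924 and the Nr3c1 ratio between 0.575 and 0.826.

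**Figure D4:**
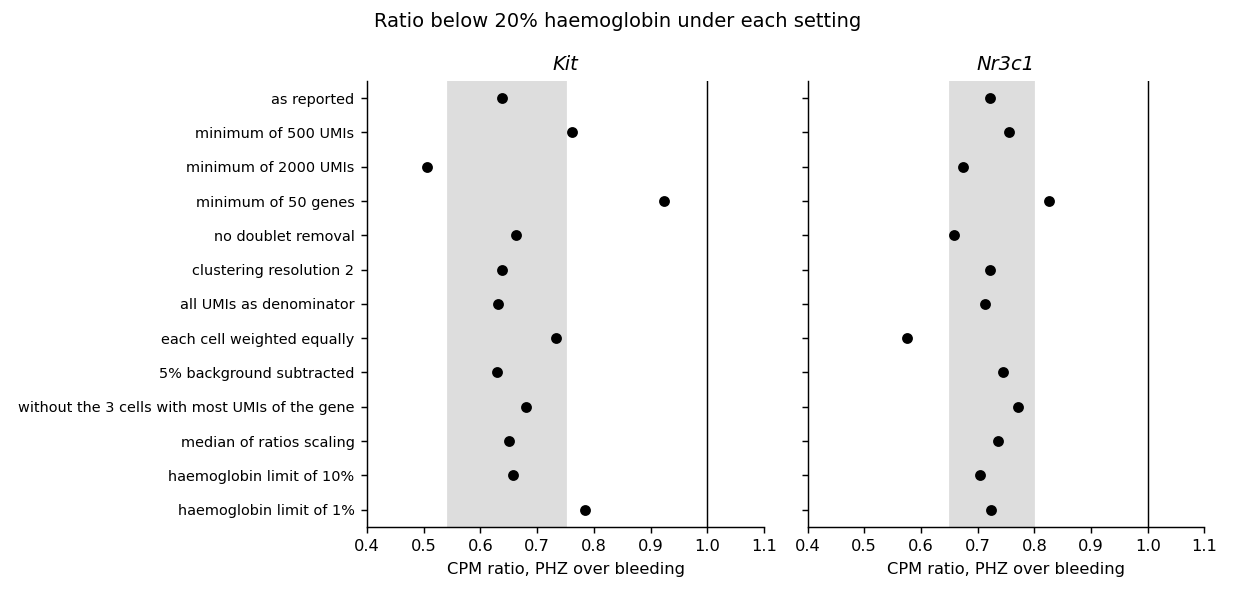
CPM ratio of PHZ over bleeding (horizontal axis) for Kit and Nr3c1 in erythroid cells under 20% haemoglobin as reported and under 12 other settings (vertical axis). The grey band is the 95% counting interval of the value as reported and the vertical line marks no difference; each point lies below 1, and Kit is nearest to it, at 0.924, when barcodes with at least 50 genes are admitted.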

How the data were processed

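Live spleen cells were profiled with 1 library for PHZ and 1 for bleeding, grouped by the treatment label. The deposited files hold whole UMI counts per gene and barcode, unnormalised and including empty droplets; per the submitters' processing notes they were made with Cell Ranger 7.0.0 against mm10, while the file headers name version 4. The handling of intronic reads and of strand was not given in the sources used here. Identifiers were matched to GENCODE M21 for GRCm38 positions (32158 of 32285).

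The matrices held 128130213 UMIs over 1608470 barcodes (PHZ) and 145260780 over 1698351 (bleeding). Cells had at least 1000 UMIs and 300 genes and at most 10% mitochondrial UMIs, 6445 and 9707 barcodes. Scrublet's highest 0.8% per 1000 cells, 332 and 754, were removed as doublets, which left 67.9% and 63.2% of UMIs. Cells were clustered in scanpy 1.11.5 (2000 variable genes without the 8 members, 30 components, 15 neighbours, Leiden resolution 1, leidenalg 0.10.2). A cluster took the class with the highest share of its markers enriched 1.5-fold or more, at least 3 of them; clusters with markers of unrelated classes were split. The naming rules, the finer haemoglobin steps and the 1% limit were set after the data were seen, and the members, lists and alternatives were chosen with earlier results of these data known. The erythroid marker Ahsp was not analysed here.

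UMIs were summed per class and library and divided by class UMIs without haemoglobin. Levels carry exact Poisson, shares Clopper-Pearson and ratios exact conditional binomial 95% intervals for counting error; UMIs of a cell are not independent, so these are too narrow for biological error. A limit for 0 UMIs is 3 counts of the class total. Text names the 8 members and, per list, mostly the 3 genes with most UMIs and those past 1.5-fold with 50 or more UMIs; others (Smad4's and Bmpr1a's overlapping genes, Tgfbr1, Fkbp5, Dusp1, Tsc22d3, Id1, Acvr1, Bmpr1b, Bmp4 and Kitl) were named after their values were seen. Interval coverage was tested on simulated data. Alternatives changed the UMI and gene minimums, doublet removal, resolution, denominator, cell weights, background, highest cells, scaling and haemoglobin limit.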

Additional observations from a re-analysis of the deposited data

Results flagged for a closer look

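The Kit ratio of PHZ over bleeding lay on opposite sides of 1 in different classes, with counting intervals that exclude 1. It was 1.75 in neutrophil-like cells (90 UMIs in PHZ, 15 in bleeding), 0.624 in early progenitor-like cells (359 and 264) and 0.384 in NK cell-like cells (9 and 60). Bmpr1a did the same, at 2.16 in T cell-like cells (40 UMIs in PHZ, 71 in bleeding) and 0.20 in B cell-like cells (4 and 49). With 1 library per treatment, the difference between classes was not tested. The neutrophil value turned to 0.422 with a minimum of 500 UMIs per barcode, and 28 of the 49 bleeding UMIs of Bmpr1a in B cell-like cells were in 23 germinal centre gene-led cells.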

How the results depend on the processing

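No paired analysis was possible because each treatment had 1 library. Of 89 alternative values for the 8 genes under 20% haemoglobin, 76 stayed within the counting interval of the reported value. Kit, 0.638 as reported, was 0.761 with a minimum of 500 UMIs, 0.505 with 2000 UMIs, 0.924 with 50 genes and 0.784 with a haemoglobin limit of 1%. Nr3c1, 0.722 as reported, was 0.826 with 50 genes and 0.575 with each cell weighted equally. Bmpr2, 1.12 as reported, was 1.70 with 50 genes, 0.792 without doublet removal and 1.58 with equal weights, so its direction was not stable. Smad1, 0.419 as reported on few UMIs, was 2.10 with 50 genes and 2.28 without the 3 highest cells, and Smad4 was 1.56 with equal weights. Gdf15, 2 PHZ UMIs, had 0 without the 3 highest cells, and Bmpr1a then gave no value. In the other classes and stages, 10 of 53 ratios passed 1.5-fold as reported and 16 without doublet removal. There 475 of 517 alternative values stayed within the counting interval. Among ratios past 1.5-fold as reported, 5 values changed side of 1: Kit in early progenitor-like cells, 1.08 with 500 UMIs; Kit in early progenitor-like and erythroid-like cells together, 1.18 with 50 genes and 2.07 with equal weights; Kit in neutrophil-like cells, 0.422 with 500 UMIs; and Smad4 in erythroid-like cells, 1.01 with 5% background subtracted. Ratios nearer 1 crossed it as well. The causes were not tested. Nr3c1 in the whole erythroid-like class, 0.898 as reported, reached 1.29, and in that class with early progenitor-like cells, 0.789 as reported, 1.1, while in early progenitor-like cells it lay between 0.646 and 0.777. In T cell-like cells Bmpr2 lay between 1.54 and 1.74 and Bmpr1a between 1.67 and 2.50. The early progenitor-like share with Kit, 1.32% in PHZ and 1.41% in bleeding cells at 500 UMIs, was 2.76% and 5.71% at 2000 UMIs and 35.5% and 50.7% unthinned. Of 21 genes named as most like a member, 4 were named by Spearman's correlation too. Depth limits Bmpr1a, Smad1 and Gdf15 in erythroid cells and all members in the 14 PHZ red pulp macrophage-like cells.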

Other observations

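In neutrophil-like cells Nr3c1 was 153 CPM in PHZ and 169 CPM in bleeding. There 5 of 7 measured glucocorticoid target genes were past 1.5-fold lower in the PHZ library. The list median log2 ratio was -0.73, against 0.01 for all genes. Of all genes 18.4% passed 1.5-fold either way, and 6.93% on the lower side. Dusp1, a phosphatase gene that restrains MAP kinases, was 85.4 CPM in PHZ and 257 CPM in bleeding, a ratio of 0.333 (0.283 to 0.391), and Tsc22d3, a classical glucocorticoid target, 63.8 CPM and 133 CPM, a ratio of 0.480 (0.390 to 0.593). Zfp36, Zfp36l2 and the kinase gene Sgk1 were at 0.604, 0.660 and 0.567. Fkbp5, also a target, was at 1.1 (0.825 to 1.5) and Nfkbia at 1.27. In the mature cluster Dusp1 was 410 CPM in PHZ and 1120 CPM in bleeding and Tsc22d3 160 CPM and 446 CPM, while in the immature cluster Tsc22d3 was 39.7 CPM and 41.4 CPM. The mature cluster held 149 of 293 neutrophil-like cells in PHZ and 64 of 111 in bleeding. T cell markers summed to 13.0 CPM in PHZ and 170 CPM in bleeding neutrophil-like cells, and B cell markers to 77.3 CPM and 218 CPM; their part in the list was not tested.

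Inhba, the activin A subunit gene, was 93.4 CPM in PHZ and 145 CPM in bleeding neutrophil-like cells, a ratio of 0.643 (0.533 to 0.779). Its UMIs were mostly in the immature cluster, 353 of 359 in PHZ and 163 of 163 in bleeding. The BMP target Id1 was 48.9 CPM in PHZ and 55.2 CPM in bleeding neutrophil-like cells, against 11 and 8 UMIs in erythroid cells under 20% haemoglobin. In barcodes of 10 to 100 UMIs, taken as free RNA, Kit was at 19.2 CPM in PHZ and 19.3 CPM in bleeding, and Nr3c1 at 112 CPM and 209 CPM. Monocyte or macrophage-like cells had 0 Kit UMIs in PHZ and 1 in bleeding, and neutrophil-like cells 23.4 CPM and 13.4 CPM of Kit. The part of free RNA in the class levels was not tested.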
